A study of Mus musculus with 10 samples.

Results

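Interneurons derived from the medial ganglionic eminence (MGE) were examined in the embryonic mouse cortex (E16.5). They were chosen by counts of unique molecular identifiers (UMIs, each standing for 1 captured transcript) among cells that passed a floor of 1000 UMIs and a ceiling of 10% for mitochondrial transcripts. A cell was taken if it had at least 1 UMI of Lhx6 and a UMI of at least 1 of Maf, Nxph1 and Sox6, fewer than 5 UMIs of Sst, none of Adarb2 or Htr3a, at most 2 of Neurod6, and fewer than 2 of the 5 cycling genes Mki67, Top2a, Cdk1, Birc5 and Ube2c detected. The rule took 4293 of 65779 cells (6.53%), with 465 to 550 cells in each WT embryo, 381 to 540 in each Het embryo and 268 to 339 in each KO embryo.

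The whole cortex of 10 embryos from timed matings was profiled, with 1 library of 10X Genomics 3′ version 3 chemistry per embryo. On the background C57BL/6N-A tm1Brd, 3 embryos were WT, 4 carried a single stop allele (Gatad2b stop/+, Het) and 3 carried the allele on both chromosomes (Gatad2b stop/stop, KO). The stop allele is the tm1a allele, an intronic trapping cassette carried by every cell of the body, so that a change in interneurons cannot be told apart from an answer to changes in other cells. Library names carried 2 prefixes, 1 shared by Het replicate 4 with all WT embryos and the other by Het replicates 1 to 3 with all KO embryos. KO and WT therefore cannot be told apart from the prefixes. KO and Het replicates 1 to 3 were also compared, within 1 prefix. A fit with the prefix as a covariate takes the prefix effect from Het replicate 4 against Het replicates 1 to 3 alone. Calls lost in that fit are therefore no measure of what the prefix accounts for.

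MGE-derived interneurons are born in the ventral forebrain, where the transcription factor Nkx2-1 switches on Lhx6, and migrate tangentially into the cortex. There they become the Sst- and Pvalb-expressing inhibitory neurons, while interneurons of the caudal ganglionic eminence (CGE) carry Adarb2, Prox1, Sp8 and Htr3a. GATAD2B is a subunit of NuRD, a complex that couples nucleosome remodeling with histone deacetylation.

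The label was checked against markers that the rule did not use. Gad1 or Gad2, the enzymes that make GABA, had a UMI in 92.9% of the cells, and Gad2 alone in 86.1%. Gad2 had a UMI in 4.49% of excitatory cells, which were chosen with few Gad1 and Gad2 UMIs. Slc32a1, the vesicular GABA transporter, averaged 130 CPM (a gene's UMIs divided by the summed UMIs of the cells and scaled to one common library size) over the embryos, against 0.775 CPM in excitatory cells. Of the CGE factors that the rule did not use, Sp8 averaged 1.47 CPM in the members and 142 CPM in CGE cells. Prox1 averaged 18.1 and 295 CPM, Npas1 44.5 and 131 CPM, and Nr2f2 61.0 and 638 CPM. Each was lower in the members in 10 of 10 embryos. CGE cells were themselves chosen by a UMI of Sp8, Prox1 or Nr2f2, so these contrasts were largely fixed in advance. Only Npas1 was outside both rules. The 7 CGE markers together made up between 104 and 187 CPM an embryo in the members. Pvalb was at 0 in every embryo. Lhx6 itself was found in 4.43% of the Neurod6-positive excitatory cells before it was limited there (median 18070 UMIs a cell).

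The members had a median of 7829 UMIs and 2924 genes a cell, against 13874 UMIs over all cells. Their summed UMIs ran from 3886301 to 4033247 over the WT embryos, from 3089406 to 4443173 over the Het embryos and from 2306471 to 2648986 over the KO embryos, so the KO values carry the largest counting error. All 3 further markers were found in 2458 members, 2 in 1399 and 1 in 436. At most 1 member barcode was shared by any pair of libraries.

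Cells just inside and just outside the limits are given as a description. The 1100 members with a single Lhx6 UMI had a median of 5927.5 UMIs, and 84.1% of them had Gad1 or Gad2, against 47.1% of the 3474 cells with no Lhx6 UMI that met the remaining conditions. The 95 members with 4 UMIs of Sst and the 68 cells left out with 5 UMIs had Gad1 or Gad2 in 94.7% and 98.5%. The 357 Lhx6-positive cells left out for a single UMI of Adarb2 or Htr3a had Gad1 or Gad2 in 95.8% and Maf in 87.7%.

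Genes that the rule did not name differed between these cells and other groups of interneurons, and are given as a description, since the same cells were chosen by their counts. Against CGE cells, Thbs1, a secreted matrix protein, averaged 92.9 CPM against 0.834 CPM. Cux2, a homeobox factor, averaged 355 against 22.5 CPM. Mef2c, an activity-regulated transcription factor, averaged 1596 against 255 CPM, and the chemokine receptor Ackr3 114 against 5.11 CPM. Each was higher than in CGE cells in all 10 embryos. Mef2c is not particular to the members, with a mean of 1117 CPM in cells with 5 or more UMIs of Sst and 1062 CPM in excitatory cells. Against the 983 cells with 5 or more UMIs of Sst, the members had more Fabp7 (235 against 22.3 CPM), Ccnd2 (89.9 against 14.1 CPM) and Epha4 (156 against 38.3 CPM), and less Npy (213 against 1846 CPM) and Grin3a (6.79 against 84.1 CPM).

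Within the members, 856 cells had 1 to 4 UMIs of Sst. These cells had more Reln (217 against 62.3 CPM), the large secreted protein that guides layer formation, and more of the kainate receptor partner Neto1 (127 against 58.0 CPM) than members without Sst, in all 10 embryos. The latter had more Epha4 (174 against 92.0 CPM) and Sox1 (275 against 169 CPM). Every cell was also thinned to 3000 UMIs and the rule applied again to the thinned counts. Sst was then found in 18.9% ± 2.07 of the cells taken in WT, 18.6% ± 2.28 in Het and 18.8% ± 2.26 in KO (± is the SD over embryos for shares and levels and the SE of the model for log2 fold changes). The rule limits Sst itself, and cells above that limit can fall under it once thinned. These shares are therefore a description and not a test of Sst in the members.

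The share of cells taken by the rule was lower in the KO embryos. The members made up 6.79%, 6.50% and 6.99% of the cells of the WT embryos, 6.81%, 8.78%, 6.79% and 6.59% of the Het embryos and 4.57%, 5.52% and 5.49% of the KO embryos. All KO embryos lay below all WT and all Het embryos, and WT and Het overlapped. KO was 1.57 points below WT (two-sided exact permutation test, p = 0.1, the smallest p that 3 and 3 embryos can give) and 2.05 points below Het (p = 0.0571 by the same exact test). Het differed from WT by 0.484 points (exact permutation p = 0.629), with a sign that turned without Het replicate 2 (-0.0276 points).

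**Figure D1:**
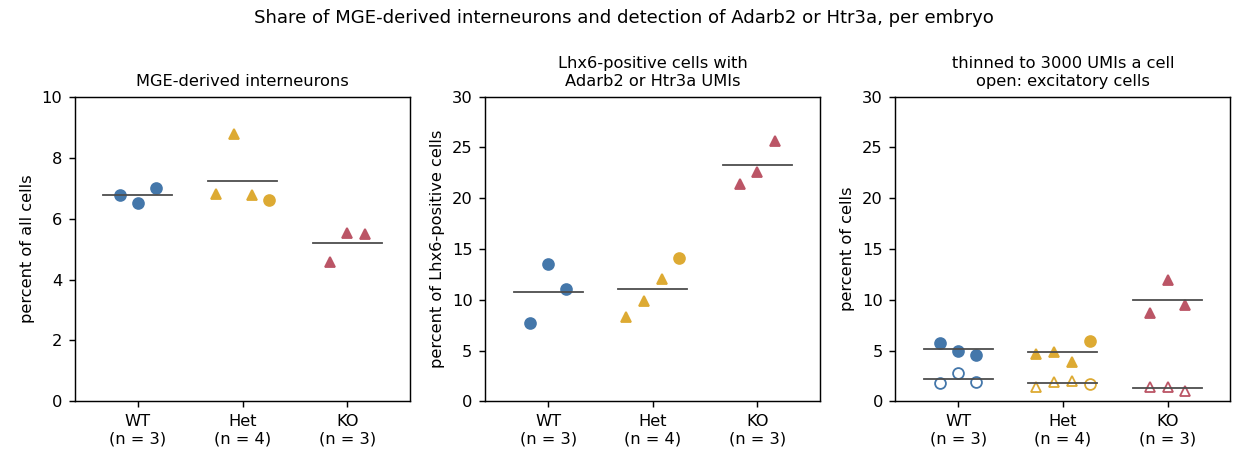
Percent of cells per embryo (y axes) by genotype (x axes): the members among all cells, the share of Lhx6-positive cells with a UMI of Adarb2 or Htr3a, and the same after thinning to 3000 UMIs, with excitatory cells as open symbols. Circles and triangles are the 2 library name prefixes and lines the group means; the KO embryos sit at 4.57% to 5.52% in the first panel, below the other embryos, and at 21.4% to 25.7% in the second, above them.

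Genes of the rule themselves differed between genotypes, so the share does not count a fixed kind of cell. Among Lhx6-positive cells that met every condition but the limit on Adarb2 and Htr3a, 7.72%, 13.6% and 11.1% had a UMI of either gene in WT, 8.29%, 9.85%, 12% and 14.1% in Het, and 21.4%, 22.6% and 25.7% in KO embryos. The KO embryos lay above the other 7. The means were 10.8% ± 2.94 (n = 3), 11.1% ± 2.55 (n = 4) and 23.2% ± 2.19 (n = 3), with exact permutation p = 0.1 for KO vs WT, 0.0571 for KO vs Het and 0.1 within the prefix that KO shares with Het replicates 1 to 3. Over the 24 shares of cells compared in this way the adjusted p was 0.141 for KO vs WT and 0.098 for KO vs Het.

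The same share was computed at equal depth and set beside a cell type that should lack both genes. Thinned to 3000 UMIs, the means were 5.12% in WT, 4.86% in Het and 10.0% in KO. Excitatory cells thinned alike, here without their limit on Adarb2 and Htr3a and taken by Neurod6 with no Lhx6, Gad1 or Gad2 after thinning, had 2.17%, 1.77% and 1.28%, lowest in KO. Without the cells that scored highest as doublets the unthinned shares were 10.7%, 10.9% and 23.3%. When Adarb2 and Htr3a were not limited, the members' share of cells was 0.802 points lower in KO than in WT (exact permutation p = 0.2), and the groups overlapped. With cells of at most 5% mitochondrial UMIs it was 0.888 points lower (exact permutation p = 0.1).

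The doubly positive cells had less Lhx6 and Maf than the members and more Nkx2-1 and Prox1. Pooled over the WT embryos, Nkx2-1 stood at 114 CPM against 23.5 CPM in the members and 1.32 CPM in CGE cells, and pooled over the KO embryos at 102 against 46.2 and 0.322 CPM. Prox1 stood at 132 CPM in WT and 62.5 CPM in KO doubly positive cells, against 23.4 and 15.4 CPM in the members.

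Genes of the rule apart from Neurod6 and the cycling genes were tested, each in cells chosen without that gene. For Htr3a, a serotonin-gated channel, the WT embryos had 11.8, 14.0 and 14.5 CPM, the Het embryos 13.3, 13.4, 8.77 and 12.6 CPM and the KO embryos 32.4, 23.6 and 28.8 CPM; KO was 1.07 ± 0.17 higher than WT on the log2 scale (edgeR adjusted p = 0.00173) and 1.23 higher than Het (edgeR adjusted p = 0.00124). For Sox6, which acts below Lhx6 in migrating cells, the values were 216, 213 and 203 CPM in WT, 219, 212, 224 and 264 CPM in Het and 298, 298 and 321 CPM in KO, a rise of 0.54 ± 0.08 in KO vs WT (edgeR adjusted p = 0.000714). Lhx6 moved the other way.

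For Lhx6 the cells were chosen by the further markers and by UMIs of Gad1 and Gad2, with the other limits kept. In them Lhx6 had 388, 376 and 398 CPM in WT, 375, 394, 389 and 332 CPM in Het and 310, 301 and 300 CPM in KO. The KO embryos lay below all others, and Lhx6 fell by 0.35 on the log2 scale in KO vs WT (SE 0.07; edgeR adjusted p = 0.00471) and by 0.29 in KO vs Het (edgeR adjusted p = 0.0381). This set could also hold cells without Lhx6, so a changed mix of cells cannot be told apart from a lower level per cell. Adarb2 (0.65 ± 0.52, edgeR adjusted p = 0.485), Maf (0.25 ± 0.09, edgeR adjusted p = 0.0898), Nxph1 (-0.01 ± 0.09, edgeR adjusted p = 0.944) and Sst (-0.31 ± 0.37, edgeR adjusted p = 0.653) did not pass the test in KO vs WT.

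For all other genes, UMIs of the members were summed per embryo, and a gene was called at an edgeR adjusted p under 0.05 and a log2 fold change beyond 0.25 in either direction. Of 11226 genes tested, 1033 were called in KO vs WT (9.2%), 514 higher (4.58%) and 519 lower (4.62%), 42 in Het vs WT (0.374%), 19 higher and 23 lower, and 122 in KO vs Het (1.09%), 51 higher (0.454%) and 71 lower. With the prefix as a covariate 72 were called in KO vs WT and 0 in Het vs WT (edgeR; 590 of 11235 genes at an unadjusted p under 0.05), and within the prefix of KO and Het replicates 1 to 3, 97 were called. The median log2 fold change over all genes was -0.01 in KO vs WT.

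Gatad2b (GRCm38, chr3:90293178-90363407, plus strand) followed the genotype labels. The WT embryos had 139, 124 and 134 CPM, the Het embryos 101, 97.8, 86.3 and 93.9 CPM and the KO embryos 64.1, 66.9 and 67.8 CPM, with no overlap between any of the groups. The log2 fold change was -0.48 ± 0.07 in Het vs WT (edgeR adjusted p = 0.00525) and -1.0 ± 0.08 in KO vs WT (edgeR adjusted p = 3.62e-06). The deposited counts do not show which exons the remaining KO transcripts hold.

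**Figure D2:**
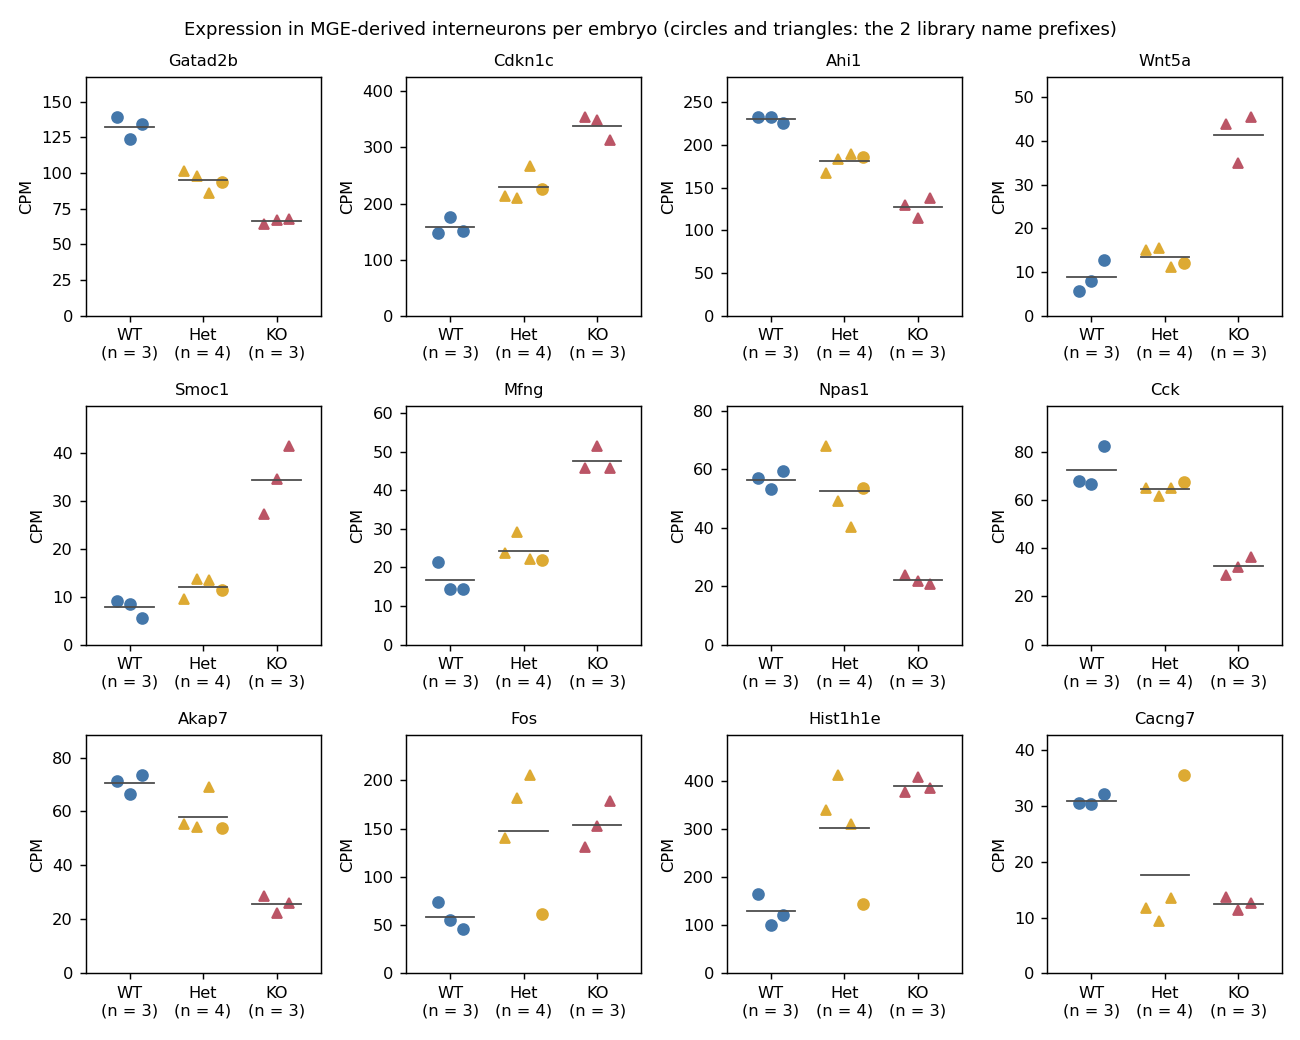
TMM-normalized CPM (y axes) in the members of each embryo for 12 genes, by genotype (x axes), with lines at the group means. Circles (WT, Het replicate 4) and triangles (Het replicates 1 to 3, KO) differ in library name prefix; Gatad2b, Cdkn1c and Ahi1 step with the alleles, Wnt5a, Smoc1, Npas1 and Cck part KO from the rest, and Fos, Hist1h1e and Cacng7 put Het replicate 4 beside WT.

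The largest increases in KO were those of Wnt5a and Smoc1. Wnt5a (GRCm38, chr14:28504750-28527448), a noncanonical Wnt ligand, had 5.71, 8.02 and 12.7 CPM in WT, 15.0, 15.5, 11.2 and 12 CPM in Het and 43.9, 35 and 45.6 CPM in KO. Smoc1 (GRCm38, chr12:81026808-81186414), a matrix protein that acts on BMP signaling, had 9.18, 8.52 and 5.57 CPM in WT, 9.45, 13.6, 13.5 and 11.3 CPM in Het and 27.2, 34.5 and 41.5 CPM in KO. Both were higher in all 3 KO embryos than in any other embryo, which for WT was a condition of being named.

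Wnt5a rose by 2.24 ± 0.21 in KO vs WT (edgeR adjusted p = 7.89e-06) and stood 1.58 higher in KO than in Het replicates 1 to 3 within the prefix (edgeR adjusted p = 0.000408). Smoc1 rose by 2.15 ± 0.21 (edgeR adjusted p = 8.59e-06), with 1.49 within the prefix (edgeR adjusted p = 0.00154). Neither passed in Het vs WT, where the log2 fold changes were 0.61 and 0.63.

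Mfng, which glycosylates Notch receptors, had 21.3, 14.3 and 14.4 CPM in WT, 23.8, 29.1, 22.1 and 21.9 CPM in Het and 45.7, 51.6 and 45.9 CPM in KO, a rise of 1.51 ± 0.16 (edgeR adjusted p = 1.47e-05). Tac1, the tachykinin precursor, G0s2, an inhibitor of fat breakdown, Rwdd3, which promotes SUMO conjugation, the DM-domain gene Dmrtb1 and Tchh, a structural protein of hair follicles, each rose by 1.42 to 2.03 on the log2 scale from WT means of 5.18 to 9.18 CPM. These levels are low. Tchh had 17.6, 19.4 and 14.7 CPM in Het replicates 1 to 3 and 10.4 CPM in Het replicate 4, within the WT range. G0s2 had 7.82, 10.4 and 10.0 CPM in Het replicates 1 to 3 and 4.25 CPM in Het replicate 4, below all WT embryos. With the prefix as a covariate, the KO vs WT changes were 0.68 for Tchh and 0.66 for G0s2. Within the prefix, Mfng, G0s2, Rwdd3 and Dmrtb1 passed the test and Tac1 (edgeR adjusted p = 0.094) and Tchh (edgeR adjusted p = 0.268) did not.

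The remaining increases of the 10 also set Het replicate 4 apart from Het replicates 1 to 3. Hist1h1e, a linker histone, had 165, 101 and 121 CPM in WT, 340, 414 and 311 CPM in Het replicates 1 to 3, 145 CPM in Het replicate 4 and 378, 408 and 386 CPM in KO. Gadd45g, a stress and differentiation gene, had 12.9, 16.3 and 13.7 CPM in WT, 33.2, 28.4 and 35.1 CPM in Het replicates 1 to 3, 14.2 CPM in Het replicate 4 and 57.1, 37.6 and 46.7 CPM in KO. In both, Het replicate 4 lay within the WT range. For Gadd45g, all KO embryos also lay above Het replicates 1 to 3.

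In KO vs WT the log2 fold change was 1.60 for Hist1h1e (edgeR adjusted p = 0.000973) and 1.72 for Gadd45g (edgeR adjusted p = 0.000494), and within the prefix 0.14 (edgeR adjusted p = 0.645) and 0.56 (edgeR adjusted p = 0.0935). Hist1h1e belongs to a family of near-identical genes, so its counts are uncertain.

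**Figure D3:**
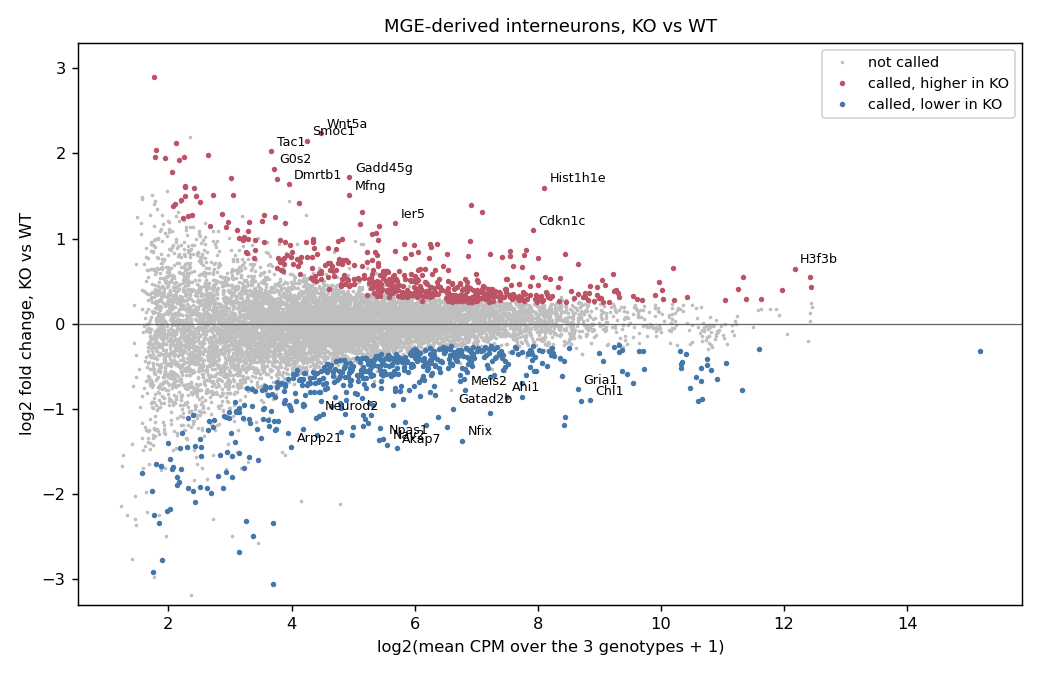
Log2 fold change in KO vs WT (y axis) against the log2 of the mean CPM plus 1 (x axis) for the genes tested in the members, each dot a gene, with called genes in red where higher and in blue where lower in KO. Genes of the rule, mitochondrial, sex-linked and hemoglobin genes are left out, as are 14 genes beyond 3.2; among the labelled genes Wnt5a and Smoc1 lie highest and H3f3b farthest to the right.

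Akap7 and Npas1 were among the largest decreases in KO. Akap7 (GRCm38, chr10:25169090-25307870), an anchor of protein kinase A, had 71.5, 66.4 and 73.6 CPM in WT, 55.4, 54.1, 69.2 and 53.8 CPM in Het and 28.6, 22.3 and 25.9 CPM in KO. Npas1, a transcription factor of interneurons, had 57.1, 53.1 and 59.5 CPM in WT, 68.1, 49.0, 40.4 and 53.6 CPM in Het and 23.7, 21.9 and 20.7 CPM in KO. The KO embryos lay below all others for both, which for WT was a condition of being named, and WT and Het overlapped.

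Akap7 fell by 1.46 on the log2 scale (SE 0.12; edgeR adjusted p = 3.62e-06) and by 1.21 within the prefix (edgeR adjusted p = 0.000438). Npas1 fell by 1.36 (SE 0.16; edgeR adjusted p = 8.39e-05) and by 1.24 within the prefix (edgeR adjusted p = 0.00352). Nav2, a microtubule-binding guidance protein, fell by 1.42, Draxin, a repulsive axon guidance ligand, by 1.36 and the sialyltransferase gene St6gal2 by 1.27, and all 3 also passed within the prefix. Plcb1, a phospholipase C, fell by 1.30, from 40.9, 46.9 and 43.5 CPM in WT to 10.5, 19.7 and 22.2 CPM in KO. It had 24.8, 22.4 and 34.2 CPM in Het replicates 1 to 3 and 41.8 CPM in Het replicate 4, within the WT range. Plcb1 did not pass within the prefix (-0.60, edgeR adjusted p = 0.313) and stood at -0.67 with the prefix as a covariate.

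Cacng7, an auxiliary subunit of AMPA receptors, had 30.5, 30.3 and 32.1 CPM in WT, 11.7, 9.48 and 13.5 CPM in Het replicates 1 to 3, 35.6 CPM in Het replicate 4 and 13.6, 11.4 and 12.6 CPM in KO. Its levels followed the prefix. The KO vs WT change of -1.30 (edgeR adjusted p = 0.0314) was 0.13 within the prefix, and 0.33 in KO vs WT with the prefix as a covariate.

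Some genes that fell are better known from other cells. Ttr, the choroid plexus transthyretin, had 59.0, 6.02 and 2.78 CPM in WT, 1.77 CPM in Het replicate 3 and 0 UMIs in the KO embryos, which over the group is at least 55.6-fold lower against a floor of 3 counts. This bound rests on WT replicate 1, without which it is 10.8-fold. The fall is not particular to the members. Ttr stood at 23.9 CPM in WT and 0 CPM in KO CGE cells, and at 65.1 and 0.0186 CPM in excitatory cells (each normalized together with the members). The 7 choroid plexus markers other than Ttr summed to between 2.83 and 5.21 CPM in WT, between 1.58 and 3.51 CPM in Het and between 0.865 and 7.55 CPM in KO, with Kl at 0, and so overlapped between genotypes. Nfix (-1.37 in KO vs WT, edgeR adjusted p = 0.00178) and Arpp21 (-1.45, edgeR adjusted p = 0.00212) are strongly expressed in excitatory neurons; the 9 excitatory markers apart from Neurod6 summed to between 90.4 and 110 CPM in WT, between 36.6 and 74.9 CPM in Het and between 52.4 and 77.8 CPM in KO. Neither gene passed within the prefix, where Nfix stood at -0.63 (edgeR adjusted p = 0.233) and Arpp21 at 0.41 (edgeR adjusted p = 0.652). Nor did they with the prefix as a covariate (-1.49 for Nfix and -0.93 for Arpp21), a fit that rests on Het replicate 4. The part of the excitatory markers in the result was not tested. In members with no Neurod6 UMI, 892 genes were called in KO vs WT.

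In the Het embryos the largest decreases, beside Ttr, were those of Arpp21, Meis2, Neurod2 and Dab1. Arpp21 had 33.7, 18.8 and 27.8 CPM in WT and 10.4, 6.48, 5.60 and 10.6 CPM in Het (log2 fold change -1.69, edgeR adjusted p = 0.00325). Neurod2, a proneural factor of excitatory neurons, fell by 1.06 (edgeR adjusted p = 0.0183). Meis2, a homeobox factor, fell by 1.12 (edgeR adjusted p = 0.0197) and Dab1, the Reelin adaptor, by 0.74 (edgeR adjusted p = 0.0298). All 4 were lower in the members than in all other cells. Means were 14.3 against 163 CPM for Arpp21, 20.3 against 427 CPM for Neurod2, 109 against 1015 CPM for Meis2 and 16.6 against 232 CPM for Dab1. Meis2 averaged 862 CPM in excitatory and 1126 CPM in CGE cells, so it is not particular to the striatal lineage here. In members with no Neurod6 UMI, Neurod2 alone of the 4 was called (-1.06, edgeR adjusted p = 0.0298), with Arpp21 at -1.16, Meis2 at -0.95 and Dab1 at -0.80 (edgeR adjusted p = 0.0521 for all 3). The excitatory markers other than Neurod2 and Neurod6 summed to between 60.7 and 75.1 CPM in WT and between 26.0 and 58.7 CPM in Het, and the 11 striatal markers other than Meis2, Tac1 and Penk to between 248 and 293 CPM in WT and between 186 and 252 CPM in Het; their part in the result was not tested. None of these 4 passed the test in KO vs Het, with log2 fold changes of 0.24 for Arpp21, 0.33 for Meis2, -0.02 for Neurod2 and 0.03 for Dab1.

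Cdkn1c and Ier5 rose in Het and were higher again in KO. Cdkn1c (GRCm38, chr7:143458339-143461050), the cyclin-dependent kinase inhibitor p57, had 147, 176 and 151 CPM in WT, 214, 210, 267 and 227 CPM in Het and 355, 349 and 313 CPM in KO. Ier5, an immediate early gene, had 35.2, 29.3 and 32.1 CPM in WT, 51.8, 47.6, 43.9 and 42.2 CPM in Het and 71.2, 74.3 and 73.3 CPM in KO. Neither gene had any overlap between genotypes, which for Het and WT was a condition of being named.

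Cdkn1c rose by 0.53 ± 0.09 in Het vs WT (edgeR adjusted p = 0.0183) and by 1.10 ± 0.10 in KO vs WT (edgeR adjusted p = 5.07e-06), and Ier5 by 0.52 ± 0.09 (edgeR adjusted p = 0.023) and 1.18 ± 0.10 (edgeR adjusted p = 3.62e-06). In members with no Neurod6 UMI both lost the Het call, at 0.40 and 0.46 (edgeR adjusted p = 0.0862 and 0.0905). Thinned to 3000 UMIs, Cdkn1c was found in 31.4% ± 1.14 of WT, 35.5% ± 1.18 of Het and 53.9% ± 1.10 of KO members (exact permutation p = 0.1 for KO vs WT and 0.0571 for KO vs Het).

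Dusp1, a phosphatase induced by stress, Hnrnpa0, an RNA-binding protein, and AC149090.1, a gene model on an unplaced contig whose counts are uncertain, were higher in Het replicates 1 to 3 than in Het replicate 4. Dusp1 had 34.0, 34.1 and 30.6 CPM in WT, 64.2, 60.4, 73.1 and 40.8 CPM in Het and 51.8, 55.5 and 70.0 CPM in KO. The 16 immediate early and stress genes together made up between 1890 and 1962 CPM in WT, 2316 to 2501 CPM in Het replicates 1 to 3, 2026 CPM in Het replicate 4 and 2323 to 2549 CPM in KO. Of their 12 members tested, Fos and Jund were called in KO vs WT, both higher (4.58% of all genes were); Fos had 61.8 CPM in Het replicate 4 and 140, 182 and 206 CPM in Het replicates 1 to 3.

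The 8 genes that the study lists as dosage-sensitive in interneuron clusters were chosen on these samples, so their direction is no independent evidence. All 8 were called in KO vs WT, against 9.2% of all genes, and 4 in Het vs WT, against 0.374%. Ahi1, a protein of primary cilia, had 233, 232 and 225 CPM in WT, 167, 184, 189 and 185 CPM in Het and 129, 114 and 138 CPM in KO, with no overlap between genotypes. It fell by 0.34 in Het vs WT (edgeR adjusted p = 0.0397) and by 0.86 in KO vs WT (edgeR adjusted p = 5.3e-06), and H3f3b, which encodes the histone variant H3.3, rose by 0.41 and 0.64 in the same comparisons. In members with no Neurod6 UMI, H3f3b kept its Het call and Ahi1 did not (-0.35, edgeR adjusted p = 0.0521). Chl1, Dlgap1, Gria1 and Celf4 fell by 0.90, 0.91, 0.77 and 0.69 in KO vs WT and did not pass in Het vs WT.

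More transcription factors of the interneuron lineage rose than fell in KO. Of 30 tested outside the rule, 9 rose and 2 fell in KO vs WT (4.58% and 4.62% of all genes), with a median log2 fold change of 0.18 against -0.01 over all genes; 3 were higher and 1 lower within the prefix, and none was called in Het vs WT. Dlx6, a homeobox factor of ventral forebrain neurons, had 49.4, 43.9 and 43.8 CPM in WT, 49.5, 56.4, 57.1 and 56.4 CPM in Het and 72.0, 76.9 and 91.5 CPM in KO (0.82 ± 0.10, edgeR adjusted p = 8.86e-05). Sp9, which drives the early migrating state, had 329, 315 and 303 CPM in WT, 397, 387, 355 and 376 CPM in Het and 487, 577 and 472 CPM in KO (0.70 ± 0.08, edgeR adjusted p = 6.9e-05). Sox4, a factor of immature neurons, rose by 0.40, and these 3 also passed within the prefix.

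Nr2f2, a factor of the caudal eminence that also marks part of the MGE lineage, stood at 30.5, 67.4 and 45.6 CPM in WT and at 92.7, 87.0 and 91.9 CPM in KO (0.92 ± 0.23, edgeR adjusted p = 0.0196). Besides Npas1, Mef2c fell, from 1882, 1781 and 1906 CPM in WT and 1605, 1533, 1799 and 1612 CPM in Het to 1424, 1152 and 1322 CPM in KO (-0.51 ± 0.08, edgeR adjusted p = 0.0006). Within the prefix neither Nr2f2 (0.81, edgeR adjusted p = 0.0552) nor Mef2c (-0.34, edgeR adjusted p = 0.068) passed. Among the 15 NuRD subunits 1 fell and 1 rose, which is near the share over all genes (4.62% and 4.58%); Gatad2b fell and Cdk2ap1 rose (1.15, edgeR adjusted p = 0.00346), the latter with 23.8 CPM in Het replicate 4 and 35.2 to 53.4 CPM in the other Het embryos, and not past the test within the prefix (0.43, edgeR adjusted p = 0.241).

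Among peptides and calcium-binding proteins that appear as interneurons mature, Cck, Calb1 and Npy fell in KO. Of 8 tested, 5 fell and 1 rose in KO vs WT (4.62% and 4.58% of all genes), with a median log2 fold change of -0.90; 1 was lower within the prefix, and none was called in Het vs WT. Of the falls, Penk and Nos1 were low in KO and passed the low-count filter through the other embryos, so that the counts and median over tested members are a description only. Cck, the cholecystokinin precursor, had 68.2, 66.7 and 82.8 CPM in WT, 65.2, 62.0, 65.1 and 67.5 CPM in Het and 29.0, 32.3 and 36.3 CPM in KO (-1.15 ± 0.11, edgeR adjusted p = 8.36e-06), and fell within the prefix too (-0.96, edgeR adjusted p = 0.000408). Calb1, a calcium buffer, had 91.5, 152 and 103 CPM in WT, 68.4, 71.7, 66.3 and 104 CPM in Het and 43.9, 45.5 and 70.7 CPM in KO (-1.10 ± 0.21, edgeR adjusted p = 0.00377). Npy fell by 0.69 (edgeR adjusted p = 0.00547).

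Calb1 and Npy did not pass within the prefix (-0.35 and -0.43, edgeR adjusted p = 0.343 and 0.247). After thinning to 3000 UMIs, Calb1 was found in 14.6% ± 1.38 of WT, 10.4% ± 0.624 of Het and 6.82% ± 1.12 of KO members, and Cck in 13.2% ± 0.535, 11.4% ± 1.01 and 5.94% ± 0.749. Nos1, which makes nitric oxide, fell from a WT mean of 3.34 CPM to 1.0 CPM in KO, and the enkephalin precursor Penk had 32 UMIs in WT, 33 in Het and 0 in KO, at least 6.51-fold lower against 3 counts over the group. The gene that rose was Tac1. Penk and Tac1 are also striatal markers, of which Isl1, Ebf1 and Meis2 fell too. KO and WT embryos overlapped for Meis2. Its call was lost with DESeq2 (DESeq2 adjusted p = 0.194) and in 4 of the fits with an embryo left out. The 11 striatal markers other than Meis2, Tac1 and Penk summed to between 248 and 293 CPM in WT and between 159 and 225 CPM in KO. The part of the striatal markers in the result was not tested. The list of GABA synthesis, packaging and transport held 8 tested genes, of which 1 was called, near the 9.2% of all genes; Abat, the enzyme that breaks down GABA, rose (0.53, edgeR adjusted p = 0.018); within the prefix it stood at 0.23 (edgeR adjusted p = 0.573).

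Of 33 migration receptors and cytoskeletal genes tested, 6 rose and 3 fell in KO vs WT (4.58% and 4.62% of all genes), with a median of 0.01; 3 were higher and 0 lower within the prefix. Epha5, an ephrin receptor, had 2228, 2033 and 2246 CPM in WT, 2312, 2283, 2163 and 2817 CPM in Het and 3264, 3373 and 2891 CPM in KO (0.55 ± 0.08, edgeR adjusted p = 0.000732). Unc5c, a netrin receptor, and Robo2, a Slit receptor, rose by 0.61 and 0.39, and all 3 passed within the prefix. The neuregulin receptor Erbb4 rose by 0.30 in KO vs WT and stood at 0.06 within the prefix (edgeR adjusted p = 0.816). Of the 3 that fell, Dab1 stood at -0.71 in KO vs WT (edgeR adjusted p = 0.0115) and at 0.05 within the prefix (edgeR adjusted p = 0.965).

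Genes of synaptic contact and excitability moved in both directions, where 4.58% of all genes rose and 4.62% fell. Of 32 tested genes of synaptic adhesion and axon contact 2 rose and 7 fell in KO vs WT (median -0.26), of 16 glutamate receptor subunits 1 rose and 4 fell (median -0.38), of 11 GABA receptor subunits 1 rose and 3 fell (median -0.12), of 26 voltage-gated channels 3 rose and 1 fell (median -0.12) and of 18 cadherins and protocadherins 1 rose and 3 fell (median -0.21). In the same order, the medians in Het vs WT were -0.21, -0.21, -0.28, -0.20 and -0.31. Those in KO vs Het were 0.02, -0.10, -0.02, 0.001 and 0.03. Within the prefix, 1, 0, 1, 0 and 1 genes were called higher and 1, 1, 0, 0 and 0 lower. Grin2b and Grin2d, NMDA receptor subunits, went opposite ways: Grin2b had 260, 288 and 272 CPM in WT and 156, 133 and 161 CPM in KO (-0.87 ± 0.11, edgeR adjusted p = 0.000163), and Grin2d 5.21, 6.77 and 7.84 CPM in WT and 12.3, 15.7 and 19.6 CPM in KO (1.27 ± 0.25, edgeR adjusted p = 0.00414). Neither passed within the prefix. Of 10 genes tested from a list of cell cycle inhibitors, exit genes and D-type cyclins, 3 rose in KO vs WT and 0 fell. Those that rose were Cdkn1c, Gadd45g and Btg1 (4.58% of all genes rose). Within the prefix Cdkn1c alone passed.

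**Figure D4:**
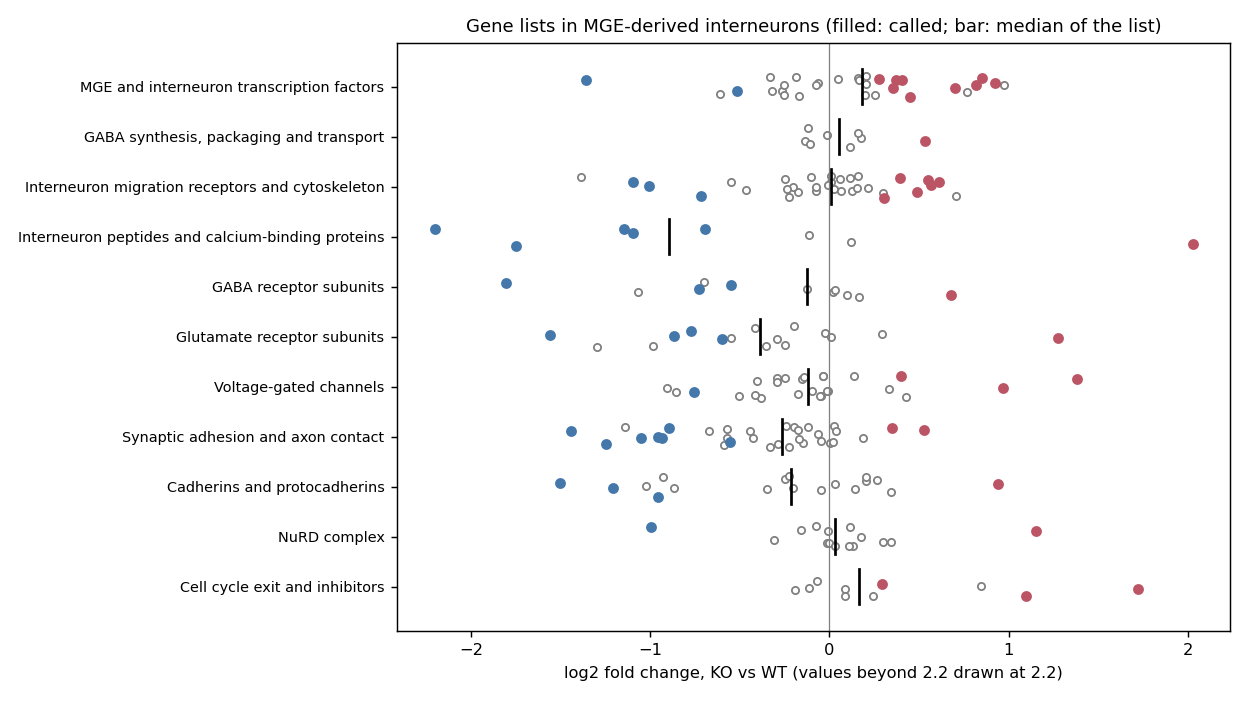
Log2 fold change in KO vs WT (x axis) of the tested genes of 11 lists (rows) in the members, each dot a gene, filled if called and open if not, with a bar at the median of the list. Genes beyond 2.2 are drawn at 2.2; the median of peptides and calcium-binding proteins lies at -0.90 and that of the transcription factors at 0.18.

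Other lists gave the makeup of the sums. Beside the 4.58% of all genes that rose and 4.62% that fell, of 13 progenitor markers Sox2 rose and Hes1 and Hes5 fell in KO vs WT. Of 9 striatal markers Tac1 rose and Isl1, Ebf1, Meis2 and Penk fell, where Meis2 overlapped between KO and WT and was not called with DESeq2. Penk passed the low-count filter through the WT and Het embryos, so that the count of striatal markers is a description only. Isl1 and Ebf1 were low, with means of 8.06 and 12.1 CPM over the embryos. Of 8 excitatory markers tested outside the rule Neurod2 fell, and of 5 CGE markers Nr2f2 rose and Npas1 fell. Endothelial and erythroid markers had 5 tested genes each with none called in KO vs WT, at median log2 fold changes of -2.58 and -2.30. The 8 endothelial and mural markers summed to 12.1 to 98.3 CPM in WT, 6.53 to 202 CPM in Het and 3.03 to 7.93 CPM in KO, so that KO lay below WT. Rgs5, a pericyte gene, was called lower within the prefix (-4.86, edgeR adjusted p = 0.0231). In Het replicates 1 to 3 the sums were 57.6, 7.65 and 202 CPM, with Het replicate 2 inside the KO range. The Rgs5 call is therefore given as a description. The part of these markers in the results was not tested. Erythroid markers ranged over 1109 to 7735 CPM (WT), 115 to 8247 CPM (Het) and 73.6 to 3057 CPM (KO). No microglia marker was high enough to be tested.

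Whether a change differed from that in other neurons was tested as an interaction over the same embryos. Against CGE cells, 33 of 11066 genes differed in their KO vs WT change (0.298%), 14 with the higher and 19 with the lower fold change in MGE cells. For Wnt5a the log2 fold change was 2.24 in MGE and 0.50 in CGE cells (difference 1.74 ± 0.19, edgeR adjusted p = 0.000189), with CGE levels of 107 CPM in WT and 151 CPM in KO. Smoc1 (2.15 and 0.48), G0s2 (1.82 and 0.24), Pcdh17 (0.94 and -0.29) and Dlx6 (0.82 and -0.30) also differed upward.

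Gas1, Adamtsl1, Phlda1, Nrp2 and Vstm2b differed downward, with MGE and CGE log2 fold changes of -0.53 and 1.33, -0.80 and 0.55, -0.73 and 0.64, -0.55 and 0.67, and -1.07 and -0.09. Nrp2, a semaphorin receptor, did not pass in either group alone. Of the 20 genes with the largest KO vs WT changes in MGE cells, the interaction was called for Wnt5a, Smoc1, G0s2 and Npas1; Gatad2b (-1.0 and -0.98) and Mfng (1.51 and 1.41) had differences of -0.02 and 0.12, not past the test.

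**Figure D5:**
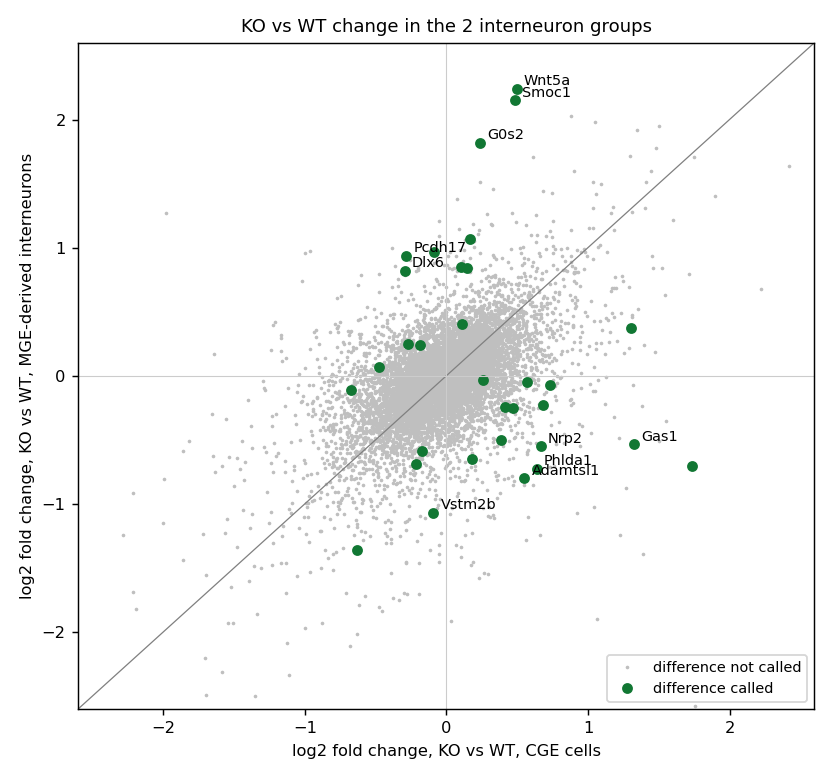
Log2 fold change in KO vs WT in the members (y axis) against that in CGE cells (x axis), each dot a gene and the diagonal equal change, with genes whose difference was called in green. Wnt5a, Smoc1 and G0s2 lie above the diagonal, with 2.24, 2.15 and 1.82 in the members and 0.50, 0.48 and 0.24 in CGE cells.

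Against excitatory cells, 609 of 15862 genes differed (3.84%), 260 with the higher (1.64%) and 349 with the lower fold change in MGE cells. Only 11226 genes were tested in the members alone, so many of the 15862 were tested through the excitatory cells. The split was 188 higher and 208 lower at 20 CPM or more in both cell groups, and 157 and 138 with limma-voom. Chl1 (-0.90 in MGE and 0.01 in excitatory cells), Gria1 (-0.77 and 0.09), Cdkn1c (1.10 and 0.25) and Gatad2b (-1.0 and -1.46) were among the 609. Trpc4, a calcium channel, and Gabrg3, a GABA receptor subunit, stood at 55.1 and 37.9 CPM in WT and 60.1 and 41.9 CPM in KO members (normalized together with excitatory cells), and at 19.3 and 7.27 CPM in WT and 3.89 and 1.73 CPM in KO excitatory cells. For Akap7 (-1.46 and -1.52) and Hist1h1e (1.60 and 1.44) the difference was not called. Npas1 stood at only 0.965 CPM in WT and 0.361 CPM in KO excitatory cells, against 54.5 and 21.1 CPM in the members, so its fold changes are not compared.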

How the data were processed

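Single-cell libraries of the cortex of 10 E16.5 embryos were used. The authors aligned reads to mm10 and deposited UMI counts per gene and barcode without normalization; the submitters' processing notes name Cell Ranger 6.0.2, a later release than the paper's methods. Members and gene lists were chosen with earlier results of these data known. UMIs were summed per embryo over the members and fitted over all 10 embryos with edgeR 4.0.16 in R 4.3.3 (filterByExpr, TMM, quasi-likelihood F-test, Benjamini-Hochberg adjustment), since cells of 1 embryo are not replicates; the study tested cells as replicates. Values are TMM-normalized CPM unless pooled. Interactions had the embryo as a block. CGE cells (2668) had at least 2 UMIs of Adarb2 and Htr3a together, a UMI of Prox1, Sp8 or Nr2f2, and no Lhx6; excitatory cells (31807) had at least 3 UMIs of Neurod6, none of Lhx6, Adarb2 or Htr3a and at most 2 of Gad1 and Gad2.

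Shares were compared by two-sided exact permutation tests over embryos in Python 3.11.15 with scipy 1.17.1; 3 and 4 embryos cannot give a p under 0.0286. Genes named were the 10 largest changes each way in KO vs WT and the 5 largest in Het vs WT, and in each interaction, among called genes of at least 20 CPM (embryos not overlapping in the first pair of comparisons), up to 4 called members of each list and those a sentence needs, the study's dosage-sensitive genes and Gatad2b. Mitochondrial, hemoglobin, sex-linked and rDNA-like genes were not named, and 1 gene that the rule takes is not reported here. Thinning to 3000 UMIs left out 214 WT, 113 Het and 50 KO members. Cells with the highest Scrublet scores (scanpy 1.11.5), as many as the barcode number predicts, were removed only in an alternative. Gene positions come from GENCODE vM21 (GRCm38), which held 31011 of the 31053 gene IDs. The fits were tested on simulated data. Alternatives were DESeq2 1.42.0, limma-voom (limma 3.58.1), other size factors, no low-count filter, the replicate number, the prefix, fewer groups, other limits on cells and each embryo left out; keeping cells with Adarb2 or Htr3a, leaving out cells with Neurod6, the fits of the rule's genes and the bounds for Ttr and Penk without each WT embryo were added after the data were seen. The paper calls Het and WT embryos littermates; the labels do not tell which embryos shared a litter.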

Additional observations from a re-analysis of the deposited data

Results flagged for a closer look

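Among the 4 Het embryos, 4 of 44 sets of values had 1 embryo far from the other 3 by Dixon's 95% criterion, where chance gives about 1 in 20. The share of cells in Het replicate 2 was 8.78%, against 6.59% to 6.81% in the other 3. Ttr stood at 1.77 CPM in Het replicate 3 and at 0 in the others. Akap7 stood at 69.2 CPM in Het replicate 3 and at 53.8 to 55.4 CPM in the others. Cacng7 stood at 35.6 CPM in Het replicate 4, the only Het embryo with the prefix of WT, and at 9.48 to 13.5 CPM in the others.

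The KO vs WT log2 fold change was higher in MGE than in CGE cells for Wnt5a (by 1.74), Smoc1 (by 1.67), G0s2 (by 1.56), Pcdh17 (by 1.19) and Dlx6 (by 1.11). The difference was -1.85 for Gas1, -1.37 for Adamtsl1, -1.36 for Phlda1, -1.25 for Nrp2 and -0.97 for Vstm2b. Against excitatory cells it was 2.54 for Ndnf, 2.47 for Wnt5a, 2.45 for Tac1, 2.44 for Trpc4 and 2.22 for Gabrg3. Tac1 stood at 0.669 CPM in WT and 0.48 CPM in KO excitatory cells, so its difference rests on the interneurons.

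The 5 negative differences from excitatory cells that were taken by size were -3.65 for Inhba, -2.82 for Ryr3, -2.16 for Necab3, -2.12 for Cdk6 and -1.99 for E130114P18Rik. They rest on few UMIs in the interneurons, 31 in WT and 1 in KO for Inhba, 41 and 4 for Ryr3, 19 and 6 for Necab3, 95 and 23 for Cdk6 and 69 and 32 for E130114P18Rik. Inhba, Ryr3 and Necab3 did not pass the low-count filter in the interneurons alone and were tested here through the excitatory cells, at 46.0, 24.0 and 10.9 CPM in WT against 2.49, 3.3 and 1.53 CPM, so that these sizes and their order are uncertain.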

How the results depend on the processing

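With the library name prefix as a covariate, 72 genes were called in KO vs WT in place of 1033 and 0 in Het vs WT in place of 42 (edgeR; 590 genes had an unadjusted p under 0.05), and Cacng7 turned to 0.33 in KO vs WT; the cause was not tested. The Het vs WT count was 88 with DESeq2 (73 higher and 15 lower, against 19 and 23), 455 without the low-count filter, 24 with at least 3000 UMIs a cell, 12 with at most 5% mitochondrial UMIs, 4 with Adarb2 and Htr3a not limited, 18 with no Neurod6 UMI, and 5 to 497 with an embryo left out (497 without Het replicate 4, 5 without WT replicate 3). The KO vs Het count of 122 was 487 without the filter, 63 with at most 5% mitochondrial UMIs, 77 with Adarb2 and Htr3a not limited, and 38 to 119 with an embryo left out. KO vs WT ran from 469 (without KO replicate 2) to 1205 (without Het replicate 4). The 33 differences from CGE cells became 15 with limma-voom, 17 with equal cell numbers and 5 (without KO replicate 2) to 40 with an embryo left out, and the 609 from excitatory cells 295 with limma-voom, 396 at 20 CPM or more and 448 to 675. The share in Het minus WT, 0.484 points, was -1.56 of interneurons, -0.192 of neurons, -0.165 within the prefix and -0.0276 to 0.701 with an embryo left out, and that of KO minus WT, -1.57, was -1.73 to -1.26. At most 5% mitochondrial UMIs gave 0.923 and -0.888 points, and Lhx6 without a second marker -2.06 in KO minus WT. Of the named genes, leaving out an embryo lost the call 47 times in Het vs WT and 8 times in KO vs WT. The outcome stayed the same 128 and 278 times. The Het call was lost 7 times for Ahi1, 6 times each for Dab1, Dusp1 and Hnrnpa0, and 5 times for Ttr. Arpp21, H3f3b and Gatad2b kept theirs in every such fit. The KO vs WT call was lost 6 times for Cacng7 and 2 times for Ttr. With DESeq2 neither was called in KO vs WT (DESeq2 adjusted p = 0.0888 and 0.0982).

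Same-numbered embryos deviated together with correlations of -0.546 to 0.230, so the numbers do not pair them. With a replicate block 555 genes were called in Het vs WT, 1295 in KO vs WT and 199 in KO vs Het. Het replicate 4 has no embryo of its number in WT or KO, so the block takes it out of these comparisons. Without Het replicate 4 and with no block, 497 were called in Het vs WT. Low genes rest on few UMIs, most of all in the KO embryos.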
